A study of Mus musculus with 18 samples.

Results

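The Frizzled receptors are the cell surface receptors of Wnt proteins, and all 10 mouse genes of the family, Fzd1 to Fzd10, were followed by their gene symbol through 9 RNA-seq libraries of the embryonic mouse cortex. They are 10 of 38250 features in the count tables, and all 10 passed the filter on low counts that left 18627 features tested. Cells came from the lateral cortex of C57BL/6 embryos at embryonic day 14.5, without meninges and ganglionic eminences, and each library holds a pool of embryos of different litters. All groups carried the same reporters, with the genotype label Btg2GFP/Tubb3GFP, while RFP stands in the titles of both Btg2 fractions. Proliferating progenitors (PP) were Btg2 negative and titled RFPminus, differentiating progenitors (DP) were Btg2 positive and titled RFPplus, and neurons (Neuron) were Tubb3 positive and titled GFPplus. Each group had 3 libraries, named here by the library numbers of the count columns: L222, L355 and L393 in PP, L223, L356 and L394 in DP, and L224, L357 and L395 in Neuron. The label of a fraction is a sort gate and not a pure cell type.

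A Frizzled receptor binds the lipid-carrying Wnt with a cysteine-rich domain outside the cell and crosses the membrane several times. Together with the co-receptors Lrp5 and Lrp6 it recruits Dishevelled, which stops the destruction of beta-catenin and lets it act with TCF/LEF factors, while other branches of the pathway orient cells in the tissue plane and steer axons. In the developing cortex Wnt signals are known for keeping progenitors dividing, for patterning from the cortical hem, a signalling centre at the medial edge, and for guiding axon tracts.

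Library depth was 34337209 to 55935128 counts with both sequencing runs of a library added. Levels are CPM, a gene's counts relative to a library total scaled by TMM, and levels of different genes were compared only as CPM per kilobase of the gene model in the count tables. The sort labels were set beside marker lists. The summed CPM of 8 radial glia genes was 5403 to 6319 in PP, 2494 to 3625 in DP and 298 to 380.1 in Neuron. That of 5 neuron genes was at most 515.2 in PP, 1840 to 2401 in DP and 8163 to 8772 in Neuron, so neuron genes were counted in every fraction. Red blood cell genes summed to at least 8352 CPM in each PP library and to at most 117.5 CPM in any other library. In such bulk samples, fewer cells of a type and less RNA per cell cannot be told apart.

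Promoter letters are shown for 4 members whose levels moved differently: Fzd1 and Fzd10 peaked in DP, Fzd7 fell at each step and Fzd9 fell only from DP to Neuron. They are the 250 bases before the transcription start in RefSeq (GRCm38.p6), written 5′ to 3′ on the strand of the gene, for Fzd1 at chr5:4758217-4758466 (minus strand), Fzd10 at chr5:128600856-128601105 (plus strand), Fzd7 at chr1:59481897-59482146 (plus strand) and Fzd9 at chr5:135251048-135251297 (minus strand). Capitals mark a match to any of 6 motifs searched on both strands.
Fzd1: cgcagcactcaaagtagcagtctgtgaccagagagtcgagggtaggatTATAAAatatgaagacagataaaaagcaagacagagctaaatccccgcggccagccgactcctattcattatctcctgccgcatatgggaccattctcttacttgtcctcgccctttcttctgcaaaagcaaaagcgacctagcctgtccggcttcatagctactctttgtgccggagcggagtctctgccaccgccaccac
Fzd10: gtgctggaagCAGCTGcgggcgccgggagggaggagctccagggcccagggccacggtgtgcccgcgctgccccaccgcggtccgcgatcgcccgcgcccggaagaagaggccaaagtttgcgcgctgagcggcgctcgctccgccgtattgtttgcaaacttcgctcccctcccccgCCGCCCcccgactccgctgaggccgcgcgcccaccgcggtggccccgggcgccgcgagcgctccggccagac
Fzd7: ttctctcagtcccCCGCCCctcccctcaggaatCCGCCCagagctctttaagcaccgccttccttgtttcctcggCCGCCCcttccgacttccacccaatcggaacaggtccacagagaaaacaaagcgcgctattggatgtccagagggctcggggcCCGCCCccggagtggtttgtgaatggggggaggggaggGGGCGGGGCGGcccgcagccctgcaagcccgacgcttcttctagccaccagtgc
Fzd9: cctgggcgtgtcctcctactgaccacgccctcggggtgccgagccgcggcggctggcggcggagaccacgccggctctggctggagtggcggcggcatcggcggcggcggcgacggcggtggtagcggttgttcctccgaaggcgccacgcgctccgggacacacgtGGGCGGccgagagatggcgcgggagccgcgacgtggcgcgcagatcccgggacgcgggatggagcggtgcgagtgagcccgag
The TCF/LEF motif searched was CTTTGAT. The RBPJ motif, of the Notch effector, was TGGGAA. One E-box, bound by basic helix-loop-helix factors, was spelled CAGCTG. The other E-box searched was spelled CAGATG. The GC box of Sp factors was GGGCGG. The TATA box was TATAAA. Fzd1 held 1 TATA box match and no GC box, Fzd10 1 match to the first E-box and 1 GC box, Fzd7 6 GC boxes and Fzd9 1 GC box, where a GC box on the other strand reads in reverse complement and neighbouring matches may overlap. Fzd4 and Fzd5, the other members looked up, held 7 and 9 GC boxes. None of these 6 windows held the TCF/LEF motif, the RBPJ motif or the second E-box. Of 32851 RefSeq windows of the same length, 32.7% held a GC box, 12.4% a TATA box, 13% the first E-box, 14.4% the second, 21.6% the RBPJ motif and 3.21% the TCF/LEF motif. The median of all windows was 52.4% G and C with 6 CpG. The Fzd1 window was 51.2% G and C with 12 CpG, Fzd7 65.2% with 17, Fzd10 76.4% with 37 and Fzd9 76.4% with 42.

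The family as a whole shrank in neurons and changed its make-up. The summed level of the 10 genes was 265 ± 18.7 CPM per kb in PP, 235 ± 8.32 in DP and 108 ± 7.66 in Neuron (mean ± SD, n = 3 libraries). Every Neuron library (101 to 116 CPM per kb) lay below every DP library (225 to 240), whereas DP and PP libraries (243 to 276) lay close together without overlap. Fzd8 and Fzd2 together held 62.0% ± 0.694 of the sum in PP, 39.2% ± 0.348 in DP and 27.4% ± 1.04 in Neuron. Fzd1 and Fzd3 together held 19.4% ± 1.45, 40.0% ± 2.61 and 67.2% ± 0.285. For each pair, the library ranges of the 3 groups did not overlap. Within DP the pairs overlapped each other, at 38.9 to 39.6% for Fzd8 and Fzd2 and 37.5 to 42.7% for Fzd1 and Fzd3. Fzd4, Fzd5, Fzd6 and Fzd10 together never exceeded 1.93% in a library, with Fzd10 read from 1 of its 2 overlapping identifiers.

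**Figure D1:**
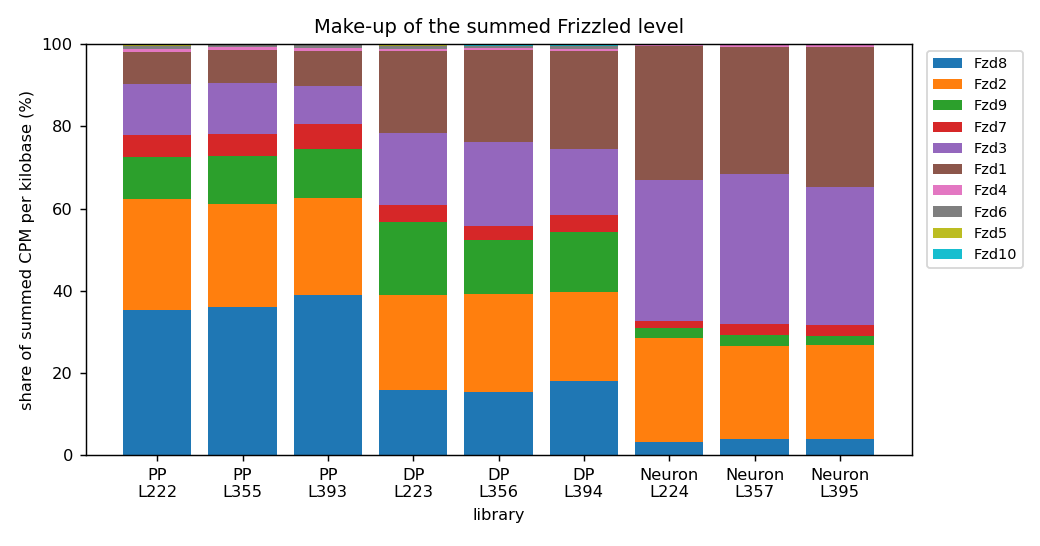
Share of the summed Frizzled level (percent of summed CPM per kb, vertical axis) held by each gene in each of the 9 libraries, which stand along the horizontal axis by group. Fzd8 held 36.8% on average in PP and 3.73% in Neuron, and Fzd3 11.4% and 34.7%.

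Fzd8 stood highest per length in PP, Fzd2 and Fzd1 in DP, and Fzd3 and Fzd1 in Neuron. In PP the order by CPM per kb was Fzd8 (97.8 ± 10.8), Fzd2 (66.4 ± 2.44), Fzd9 (30.1 ± 4.34), Fzd3 (30.0 ± 4.30), Fzd1 (21.4 ± 2.07) and Fzd7 (14.8 ± 1.69), and of these neighbours only Fzd9 and Fzd3 had overlapping libraries. In DP, Fzd2 (53.7 ± 4.67), Fzd1 (51.8 ± 3.52), Fzd3 (42.1 ± 6.39), Fzd8 (38.3 ± 2.08) and Fzd9 (35.8 ± 5.76) followed each other, and each neighbouring pair overlapped. In Neuron, Fzd3 (37.6 ± 3.45) and Fzd1 (35.2 ± 2.37) overlapped, Fzd2 (25.7 ± 3.36) came next without overlap, and Fzd8 (4.02 ± 0.297) lay well under it. The remaining genes were at or under 2.58 CPM per kb in Neuron, the lowest being Fzd5 at 0.0265 ± 0.0213. Fzd9 and Fzd7 overlapped there, as did Fzd6 and Fzd5. In PP and DP, Fzd4 and Fzd6 overlapped (1.83 ± 0.232 and 1.72 ± 0.397 in PP, 1.26 ± 0.0942 and 1.41 ± 0.462 in DP), and Fzd5 and Fzd10 were the lowest. Fzd10 was read from 1 of 2 overlapping identifiers (629 reads against 536), so its level and rank may be too low.

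**Figure D2:**
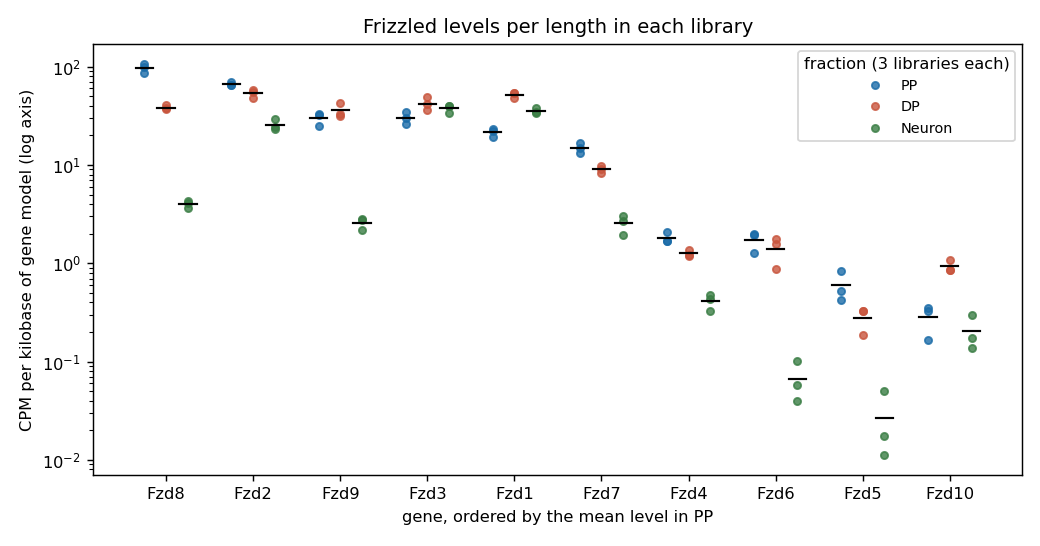
Level of each Frizzled gene in each library (CPM per kb, log axis), with 1 point per library coloured by group. The Neuron points of Fzd8 (near 4.02 on average) and Fzd9 (near 2.58) lie far under their PP and DP points, while those of Fzd1 and Fzd3 do not.

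Groups were compared by the quasi-likelihood test of edgeR, and p-values were adjusted over all 18627 features by Benjamini and Hochberg, with a threshold of 0.05. Every adjusted p given here is of this kind unless another is named. DP against PP asks what differs when progenitors turn to making neurons. Of the 10 Frizzled genes, 8 were called, 3 higher and 5 lower in DP, where 41.4% of all features were called (21.3% higher, 20.2% lower). The libraries of the groups did not overlap for these 8, against 49.7% of all features. In Neuron against DP, 9 of 10 were lower and 0 higher, where 67.3% of all features were called, 34.2% as lower and 33.1% as higher, and 9 did not overlap, against 72.4%. In Neuron against PP, 2 were higher and 7 lower, where 75.3% were called (36.7% higher, 38.6% lower), and 8 did not overlap, against 78.6%. The median log2 fold change of the 10 genes was -0.30, -1.99 and -2.35 in the order of these comparisons, and that of all features -0.02, -0.04 and -0.04. Comparisons that share a group share its libraries. In the authors' deposited tables, which hold the first pair of comparisons, all 10 genes had the same call and direction in each, with log2 fold changes within 0.12 of those given here.

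**Figure D3:**
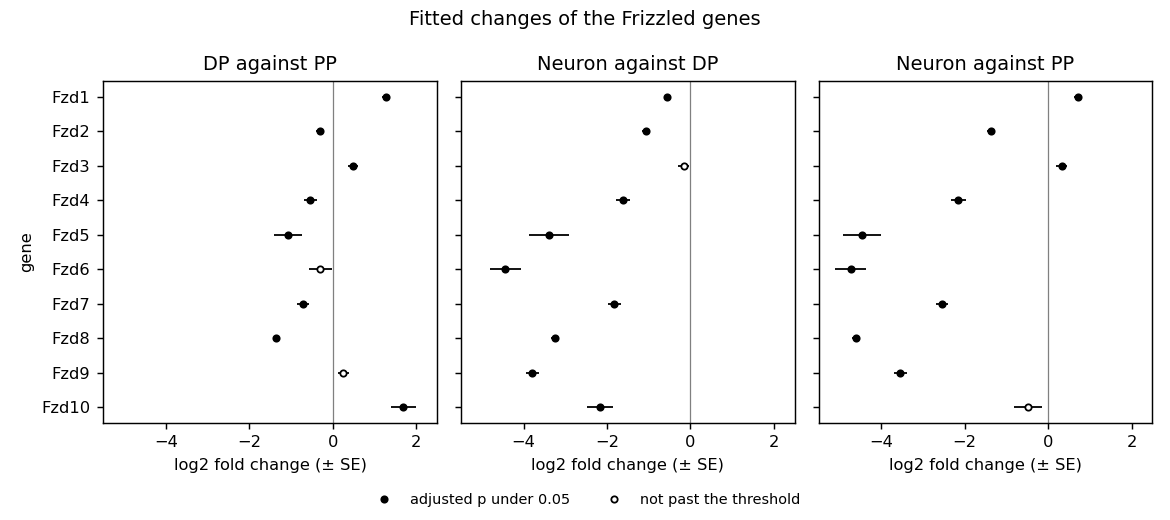
Log2 fold change of each Frizzled gene (horizontal axis) in 3 comparisons, as points with bars of 1 SE, filled where the adjusted p was under 0.05 and open where it was not. In the Neuron panel set against DP all 10 points lie under 0, and only that of Fzd3 is open.

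Fzd1, Fzd2 and Fzd7 form the most alike group in sequence: the coding sequences of Fzd1 and Fzd2 were 82.7% identical, those of Fzd1 and Fzd7 78.9%, and those of Fzd2 and Fzd7 79.1%. Fzd1 (chromosome 5, 4753842 to 4758216, minus strand, mm9) is a receptor of several Wnt proteins of the beta-catenin branch. It was at 83.9, 96.2 and 101 CPM in the PP libraries (in the order L222, L355, L393), at 209, 236 and 235 in DP (L223, L356, L394), and at 165.9, 146 and 150 in Neuron (L224, L357, L395). Every DP library was above every Neuron library, and every Neuron library above every PP library. Fzd1 rose 2.42-fold from PP to DP (log2 1.27, SE 0.087, adjusted p = 8.62e-07) and fell 1.47-fold from DP to Neuron (log2 -0.56, SE 0.086, adjusted p = 0.000118). All 5 intermediate progenitor genes were higher in DP than in PP and lower in Neuron than in DP. Against PP, 1 of the 5 was higher in Neuron (Insm1, 1.43-fold, adjusted p = 0.00148) and 3 were lower. Fzd1 was 1.64-fold higher in Neuron than in PP (adjusted p = 1.18e-05). The summed levels of the 5 genes were 798.8 to 927.7 CPM in PP, 2243 to 3163 in DP and 439.1 to 484.4 in Neuron. None of these 5 genes was at 0 reads in a group. The part of intermediate progenitors in the Fzd1 values was not tested.

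Fzd2 (chromosome 11, 102465745 to 102469372, plus strand) acts with Fzd1 and Fzd7 in closure of the palate and in cell polarity in mice. Its levels were 237, 251 and 235 CPM in PP, 200.3, 208 and 176 in DP, against 107, 89.1 and 83.5 in Neuron, in the library order above, with no overlap between groups. It fell 1.24-fold from PP to DP (log2 -0.31, SE 0.095, adjusted p = 0.0233) and 2.09-fold from DP to Neuron (log2 -1.06, adjusted p = 1.27e-06). The first of these calls was lost without PP library L355 (adjusted p = 0.0787) or DP library L394 (adjusted p = 0.0985), and adjusted p over 14 alternatives ran from 0.00302 to 0.0985.

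Fzd7 (chromosome 1, 59538991 to 59543791, plus strand), a receptor known from stem cells of the mouse intestine, went from 63.4, 70.7 and 79.6 CPM in PP to 46.7, 39.4 and 43.8 in DP, against 9.27, 14.5 and 12.9 in Neuron. The groups did not overlap, and each step was lower: 1.65-fold from PP to DP (log2 -0.72, SE 0.14, adjusted p = 0.00165) and 3.53-fold from DP to Neuron (log2 -1.82, SE 0.149, adjusted p = 4.97e-07). Of these alike sequences, Fzd2 and Fzd7 fell at both steps, as 10.9% of all features did, and Fzd1 was higher in DP than in both other groups, as 4.37% were.

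Fzd5 and Fzd8 share 76.7% of their coding sequence and also fell at both steps. Fzd8 (chromosome 18, 9212854 to 9216199, plus strand) is a high-affinity Wnt receptor whose Wnt-binding domain is known in complex with a Wnt. Its levels were 288, 333 and 360 CPM in PP, 126, 123 and 136 in DP, against 12.4, 14.3 and 13.7 in Neuron. The lowest PP library was above the highest DP library, and the lowest DP library above all Neuron libraries. Fzd8 fell 2.55-fold from PP to DP (log2 -1.35, SE 0.089, adjusted p = 7.05e-07) and 9.53-fold from DP to Neuron (log2 -3.25, SE 0.098, adjusted p = 1.9e-10), or 24.3-fold from PP to Neuron. Radial glia genes fell too, 7 of 8 from PP to DP and 8 of 8 from DP to Neuron, and the part of that change in the Frizzled levels was not tested.

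Fzd5 (chromosome 1, 64777134 to 64784324, minus strand), known for its role in the eye and in Paneth cells of the mouse gut, was low: 5.83, 3.65 and 2.92 CPM in PP, 2.26, 2.29 and 1.28 in DP, against 0.351, 0.122 and 0.0773 in Neuron. The groups did not overlap, although Neuron rested on 24 reads in its 3 libraries. Fzd5 fell 2.11-fold from PP to DP (log2 -1.08, SE 0.34, adjusted p = 0.0249), a call lost without PP library L222 (adjusted p = 0.103) or DP library L394 (adjusted p = 0.0901), with a range over 14 alternatives of 0.00172 to 0.103. From DP to Neuron it fell 10.5-fold (log2 -3.39, adjusted p = 5.13e-05), and by a log2 of -4.22 without Neuron library L224. Of the 50-base windows of the Fzd5 transcripts in GENCODE M21, 16.4% also occur in Gm38058, searched on both strands. No feature of the gene models used for counting overlapped Fzd5, and the use of strand in counting was not given in the sources. Reads from the shared windows therefore cannot be assigned to 1 gene.

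Fzd3 and Fzd6 share 66.7% of their coding sequence and are the members best known from planar polarity. Fzd3 (chromosome 14, 65819863 to 65881300, minus strand) is needed in mice for major axon tracts of the forebrain. Its levels, here in CPM per kb, were 29.8, 34.4 and 25.9 in PP, 41.7, 48.6 and 35.9 in DP, against 39.7, 39.4 and 33.6 in Neuron. DP libraries were all above PP libraries, while Neuron overlapped both. Fzd3 rose 1.402-fold from PP to DP (log2 0.49, SE 0.126, adjusted p = 0.00884), a pattern of rise without a called second step that 4.5% of all features had. Neuron against DP was not called (log2 -0.16, SE 0.125, adjusted p = 0.269), except with library totals in place of TMM scaling (log2 -0.39, adjusted p = 0.01) and with trios of consecutive library numbers as a replicate block (log2 -0.15, adjusted p = 0.0338), with a range of 0.01 to 0.76 over 14 alternatives. Against PP, Fzd3 was 1.25-fold higher in Neuron (adjusted p = 0.0339), but not with library totals (log2 0.02, adjusted p = 0.909) nor without PP library L222 (0.0715), PP library L393 (0.108), Neuron library L224 (0.0929) or Neuron library L357 (0.0936), with a range of 0.00049 to 0.909.

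Fzd6 (chromosome 15, 38837879 to 38869732, plus strand), which orients hair follicles in mouse skin, was at 8.05, 5.17 and 7.89 CPM in PP, 6.45, 3.60 and 7.16 in DP, against 0.234, 0.163 and 0.412 in Neuron. PP and DP overlapped and did not differ by the test (log2 -0.30, SE 0.27, adjusted p = 0.413), while all Neuron libraries were far lower. Fzd6 fell 21.6-fold from DP to Neuron (log2 -4.43, SE 0.377, adjusted p = 7.07e-07), from 757 reads in DP to 34 in Neuron. Like Fzd9, it was lower at the second step only, as 19% of all features were.

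Fzd9 and Fzd10, with 73.2% identity, are given last together with Fzd4. The identities do not set Fzd4 with them. It was 68.8% identical to Fzd10 and 67.2% to Fzd9, and 68.9% to Fzd1 and 67.5% to Fzd2. Fzd9 (chromosome 5, 135724808 to 135727100, minus strand) is a receptor expressed in neural progenitors and the hippocampus of mice. It was at 57.5, 73.5 and 75.7 CPM in PP, 97.3, 73.0 and 76.2 in DP, against 6.30, 6.40 and 5.05 in Neuron. DP library L223 was the highest, the other DP libraries lay within the PP range or near it, and all Neuron libraries were low. DP and PP did not differ by the test (log2 0.25, SE 0.133, adjusted p = 0.153). From DP to Neuron, Fzd9 fell 13.8-fold (log2 -3.79, SE 0.155, adjusted p = 1.48e-09).

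Fzd10 (chromosome 5, 129106719 to 129109968, plus strand), a gene of the dorsal neural tube and the cortical hem in mice, was the scarcest member of PP, with 126 reads there, 414 in DP and 89 in Neuron. Its levels were 0.537, 1.15 and 1.07 CPM in PP, 2.80, 3.51 and 2.75 in DP, against 0.445, 0.975 and 0.567 in Neuron. All DP libraries were above all others, and PP and Neuron overlapped. Fzd10 rose 3.24-fold from PP to DP (log2 1.70, SE 0.303, adjusted p = 0.000942) and fell 4.50-fold from DP to Neuron (log2 -2.17, SE 0.316, adjusted p = 7.44e-05). Neuron against PP was not called (log2 -0.47, adjusted p = 0.222), except without Neuron library L357 (log2 -0.88, adjusted p = 0.0446), with a range of 0.0446 to 0.542. Of 6 hem and choroid plexus genes, 5 were higher in DP than in PP and 6 lower in Neuron than in DP. Against PP, 1 was higher and 4 lower in Neuron, where Fzd10 was not called. The summed levels of the 6 genes were 21.8 to 63.3 CPM in PP, 43.1 to 90.0 in DP and 3.35 to 4.40 in Neuron. None of these 6 genes was at 0 reads in a group. In PP, Ttr made up 32.7 ± 20.9 CPM of a mean sum of 39.9, and in DP 21.8 ± 26.95 of 60.9. Ttr was not called from PP to DP. The part of hem and choroid plexus cells in the Fzd10 values was not tested. Fzd10 has 2 identifiers on the same strand that overlap, and the one with more reads (629 against 536) was taken, so the reads of the pair cannot be told apart.

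Fzd4 (chromosome 7, 96552876 to 96558620, plus strand), the receptor of Norrin in vessels of the mouse retina, was at 6.28, 6.21 and 7.72 CPM in PP, 5.04, 4.40 and 4.49 in DP, against 1.19, 1.61 and 1.75 in Neuron. The groups did not overlap. Fzd4 fell 1.45-fold from PP to DP (log2 -0.54, SE 0.158, adjusted p = 0.0171) and 3.06-fold from DP to Neuron (log2 -1.61, SE 0.173, adjusted p = 5.6e-06). The first call was lost without PP library L393 (adjusted p = 0.0786), DP library L356 (0.0595) or DP library L394 (0.0534) and with paired-end runs alone (0.0509), with a range of 0.00469 to 0.0786. Of 8 endothelial genes, 6 were lower in DP than in PP and 3 lower in Neuron than in DP, with sums of 9.45 to 28.2 CPM in PP, 9.49 to 11.4 in DP and 3.05 to 5.59 in Neuron. All 5 pericyte genes were lower in DP than in PP, with sums of 26.2 to 49.7, 6.22 to 10.6 and 2.05 to 2.60 CPM. No gene of either list was at 0 reads in a group, and the part of vessel cells in the Fzd4 values was not tested.

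The genes around the receptors were read from lists of Wnt pathway members, of which 61 of 72 were tested. From PP to DP 29 were higher and 15 lower, and from DP to Neuron 10 were higher and 38 lower. Over all features, 21.3% were higher and 20.2% lower at the first step, and 33.1% and 34.2% at the second. The counts per list below are to be read beside these shares. Of the co-receptors and other Wnt-binding receptors 0 of 6 were called from PP to DP, with adjusted p from 0.165 for Ptk7 to 0.868 for Ryk, and 5 of 6 were lower from DP to Neuron. The co-receptor Lrp5 was at 118 ± 9.11, 127 ± 11.8 and 37.7 ± 6.53 CPM in PP, DP and Neuron, and Lrp6 at 216 ± 12.6, 230 ± 14.2 and 187 ± 5.13. Lrp5 was 3.37-fold lower in Neuron than DP (adjusted p = 1.27e-07) and Lrp6 1.23-fold lower (adjusted p = 0.00242), while Ror1 showed the lowest log2 fold change of the list (-1.94). Smo, the Hedgehog receptor subunit that carries a Frizzled-type domain, went from 230 ± 6.55 to 164 ± 20.1 and 27.4 ± 3.23 CPM, lower at both steps (adjusted p = 0.00195 and 1.44e-09).

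Genes that remove Frizzleds from the membrane differed in direction at the first step. Rnf43, a ubiquitin ligase that clears Frizzled, rose from 1.61 ± 0.134 CPM in PP to 6.42 ± 0.580 in DP (3.97-fold, adjusted p = 2.27e-05) and fell to 0.324 ± 0.162 in Neuron (19.1-fold, adjusted p = 3.51e-08). Its relative Znrf3 was 50.0 ± 6.17, 39.7 ± 3.55 and 11.2 ± 0.506 CPM, lower at both steps. Of the 5 genes of this list, which also holds the R-spondin receptors, 3 rose and 1 fell at the first step, and 2 fell at the second. The highest change at the first step was that of Lgr5, from 2 reads in PP to 56 in DP. Of 4 Norrin and Fzd4 partners, 1 was higher and 2 lower at the first step, led by Reck (1.47-fold higher) and Gpr124 (3.497-fold lower), and 2 were lower at the second, where Tspan12, a tetraspanin partner of Fzd4, fell 3.09-fold (adjusted p = 2.42e-08) and Reck fell by 1.00 on the log2 scale.

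Inside the cell, 4 of 8 genes of the Dishevelled and beta-catenin relay rose and 0 fell at the first step, led by Dvl3 (1.41-fold, adjusted p = 0.000716), with Gsk3b the smallest (1.16-fold, adjusted p = 0.042). From DP to Neuron 2 were higher and 4 lower: Apc, a scaffold of the destruction complex, rose 3.30-fold to 1029 ± 55.7 CPM, and Ctnnb1, beta-catenin itself, fell 1.59-fold to 1100 ± 28.4 CPM. Of 8 planar polarity partners, 5 were higher and 1 lower at the first step, and 3 were higher and 3 lower at the second. Celsr3, a cadherin needed with Fzd3 for axon tracts in mice, rose from 30.1 ± 13.6 to 334 ± 54.5 CPM (11.1-fold, adjusted p = 1.62e-06), and Vangl1 was 1.42-fold lower (adjusted p = 0.045). At the second step Prickle1 was 9.18-fold higher (adjusted p = 1.09e-09) and Celsr1, a cadherin of the same family as Celsr3, 9.98-fold lower (adjusted p = 9.36e-10).

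Of 19 Wnt ligand genes 11 were tested. From PP to DP 7 were higher and 3 lower, and from DP to Neuron 3 were higher and 6 lower. The highest at the first step was Wnt10a, from 2 reads to 77, and the lowest Wnt4 (3.14-fold lower, from 0.773 to 0.243 CPM). At the second step Wnt7b rose from 122 ± 15.5 to 572 ± 17.4 CPM (adjusted p = 9.61e-09), and Wnt3a, a hem ligand that is also in the hem list above, fell from 6.19 ± 1.12 to 0.0625 ± 0.0398 CPM (adjusted p = 2.28e-06). Both genes of Wnt secretion were higher in DP, Porcn by a log2 of 1.03 and Wls by 0.83. At the second step Porcn was higher and Wls lower.

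Of 11 secreted inhibitors 8 were tested. From PP to DP 3 rose and 4 fell, and from DP to Neuron 1 rose and 7 fell. Sfrp1, which binds Wnt with a Frizzled-like domain, was at 906 ± 59.1, 355.9 ± 73.7 and 103 ± 9.99 CPM, lower at both steps (adjusted p = 1.07e-05 and 2.14e-07). Dkk2 had the lowest log2 fold change at the first step (-1.44) and the highest at the second (1.32), at under 1 CPM, Cer1 the highest at the first, from 3 reads to 93, and Frzb the lowest at the second (-4.94). Of 4 TCF/LEF factors, 1 was higher (Lef1, 1.59-fold) and 2 lower at the first step and 4 lower at the second, where Tcf7l1 fell from 56.4 ± 13.9 to 2.27 ± 0.0800 CPM and Tcf7 by 0.81 on the log2 scale. Tcf7l1 was also the lowest at the first step (-1.27). Of 9 target and feedback genes 7 were tested, among them Lgr5, Znrf3 and Rnf43, which are also in the turnover list. Of the 7, 5 rose and 2 fell from PP to DP, and 5 fell from DP to Neuron. The lowest at both steps was Ccnd1, the cyclin of G1 phase, at 176 ± 30.0, 95.7 ± 0.688 and 3.73 ± 0.457 CPM, while the feedback inhibitor Axin2 was at 75.0 ± 7.81, 111 ± 8.36 and 39.6 ± 0.776.

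From PP to Neuron, 17 of the 61 pathway genes rose and 36 fell, where 36.7% of all features were higher and 38.6% lower. Among the pathway genes that rose, Lgr5 went from 2 reads to 76, Wnt10a from 2 reads to 65 and Cer1 from 3 reads to 16. Celsr3 rose by a log2 of 5.11, Porcn by 2.64 and Apc by 2.15. The lowest log2 fold changes of their lists were those of Tcf7l1 (-5.90), Ccnd1 (-5.56), Frzb (-4.96), Celsr1 (-3.21), Wnt3a (-2.83), Tspan12 (-2.42), Rnf43 (-2.27), Ror1 (-2.21) and Ctnnb1 (-0.69). In lists with no gene that rose, the smallest falls were those of Reck (-0.44), Lef1 (-0.34) and Lrp6 (-0.21). Smo had a log2 fold change of -3.07.

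**Figure D4:**
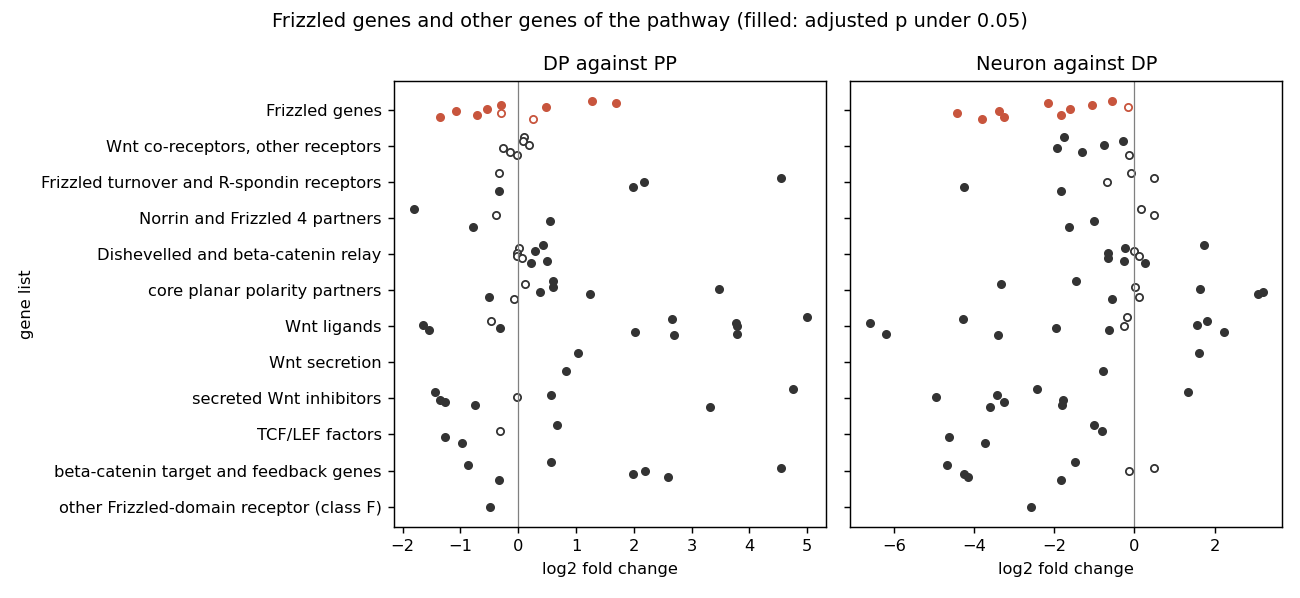
Log2 fold change of each tested gene of the pathway lists (vertical position by list), with 1 panel for DP relative to PP and 1 for Neuron relative to DP. Orange points are the Frizzled genes, black points the others, filled where the adjusted p was under 0.05. Lgr5, Znrf3 and Rnf43 are in both the turnover and the target list and are drawn in each. With every gene counted once, 38 of 61 other genes were called lower in the latter panel, where 34.2% of all features were lower. Wnt3a (-6.60) was the lowest of the 38.

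Genes whose levels ran most like each Frizzled gene over the 9 libraries were found by Pearson's r of log2(CPM + 0.5), among 10926 protein-coding genes of at least 5 CPM on average. The points share libraries and fall into 3 groups, so r is given as a description. Fzd8 was most like Pacsin3, Arsk and Cdon (r = 0.998 each), and 1575 genes reached 0.95. Fzd2 (Tox3, Sema5a and Sall4), Fzd4 (Atp10a, Rad50 and Lrrk2), Fzd6 (Itgb3bp, Atad5 and Rfc5), Fzd7 (among them Sfrp4 and Magt1) and Fzd9 (Mastl, Nek2 and Cd109) had between 1326 and 1489 such genes. Fzd5 (Pabpc1, Ddx19a and Myl12a) had 761. Fewer genes reached 0.95 with Fzd1, Fzd3 and Fzd10. Fzd1 was most like Cecr2 (0.988), Masp1 (0.986) and Adamts7 (0.981), with 63 genes at 0.95, and Fzd3 like Bag4 (0.981), Fam100a (0.973) and Exosc4 (0.972), with 9. Fzd10 was most like Zic1 (0.995), Tmem47 (0.978) and Rspo2 (0.969), also with 9, and Rspo2 is a member of the hem list. Zic1 was at 62.4, 137 and 52.6 CPM in PP, DP and Neuron.

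**Figure D5:**
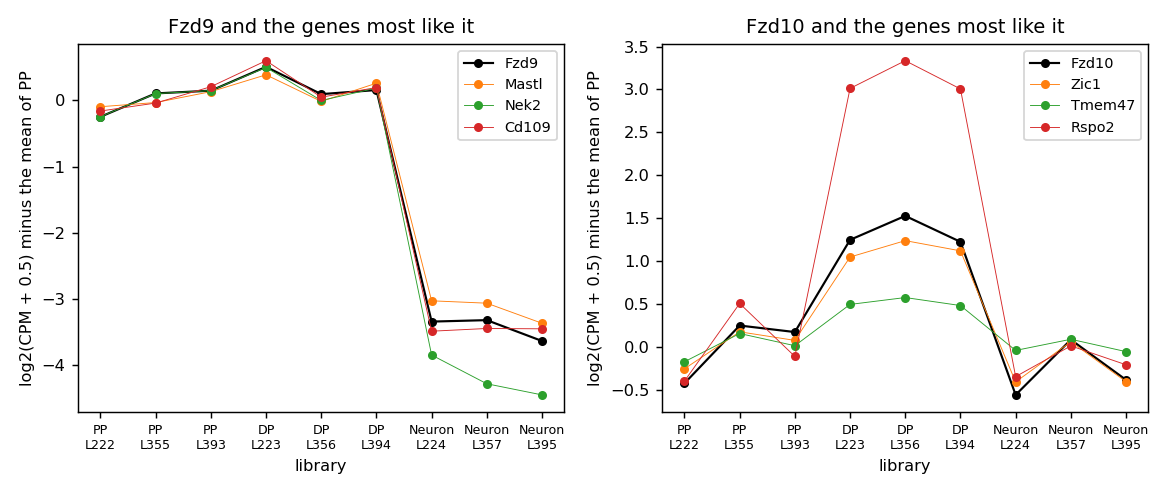
Level of Fzd9 and of Fzd10, each with its 3 most alike genes, in the 9 libraries (log2(CPM + 0.5) minus the PP mean, vertical axis), with lines that only join the points of a gene. Fzd10 and Zic1 (r = 0.995) peak in the DP libraries, while Fzd9 and Mastl (r = 0.998) drop in the Neuron libraries.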

How the data were processed

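Whole-number counts per feature were deposited by the authors for each sequencing run, on mm9 and Ensembl release 67, per the file headers. TopHat2 2.0.10, Bowtie2 2.2.1 and featureCounts 1.4.4 are named in the submitters' processing notes without a role. The authors' deposited tables also hold log2 fold changes, p-values and a normalised signal per library. Single-read and paired-end counts of a library were added here, giving 9 libraries from 18 samples. edgeR 4.0.16 (R 4.3.3) used TMM scaling, filterByExpr, the quasi-likelihood test with group as the only term on all 9 libraries, and Benjamini-Hochberg adjustment. SE is the log2 fold change divided by the root of F. CPM per kb uses the lengths of the count tables. Coding identity and shared 50-base windows come from GENCODE M21 transcripts (Biopython 1.88), and promoters from RefSeq. Alternatives included DESeq2 1.42.0. The script was tested on simulated data. Named genes were all 10 members, per list and comparison the called genes with the highest and lowest log2 fold change, Smo, Lrp5 and Lrp6, and the 3 most alike genes of each member, of which 1 is not reported here. Sfrp1 was named after its values were seen. Members and lists were chosen with earlier results of these data known. The series design calls the replicates biological, and p-values therefore reflect variation among pools. Libraries within a group differed beyond sampling noise, with chi-square over degrees of freedom from 8.47 to 31.3. Library numbers in the count columns run in trios of 1 PP, 1 DP and 1 Neuron library (L222 to L224, L355 to L357, L393 to L395). The samples carry a replicate number in every group, but the count columns hold only the library numbers, which no label gives. The fit therefore has no block. Deviations from the group means correlated at 0.187 to 0.462 in the 9 pairs within trios and at -0.427 to 0.051 in the other 18, so a fit with the trio as a replicate block was added after seeing the data.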

Additional observations from a re-analysis of the deposited data

How the results depend on the processing

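Of 420 alternative values of 30 log2 fold changes (10 genes, 3 comparisons, 14 settings each), 404 kept their direction and side of the threshold, 13 lost the call, 3 gained one and 0 reversed. Leaving out libraries in turn gave 5 to 8 Frizzled genes called in DP against PP, the 5 without DP library L394. The share of Fzd8 in PP was 34.5% when not divided by length, against 36.8%, and that of Fzd3 in Neuron 37.2% with single-read and 32.9% with paired-end runs alone, against 34.7%. Library totals without TMM, an alternative chosen after seeing the data, moved the median log2 fold change of all features to -0.11, -0.26 and -0.35 in DP against PP, Neuron against DP and Neuron against PP. The share of calls that were higher became 39.6%, 35.7% and 35%, against 51.3%, 49.1% and 48.7%. With library totals, the counts of pathway genes higher and lower in DP against PP went from 4 and 0 to 3 and 0 in the relay and from 5 and 1 to 4 and 2 in planar polarity. In Neuron against DP they went from 2 and 4 to 1 and 5 in the relay, while 1 more gene was lower among Wnt-binding receptors, turnover genes, ligands, targets and planar polarity genes. In Neuron against PP the relay went from 4 and 3 to 2 and 4, and 1 more gene was lower among Wnt-binding receptors, secretion and planar polarity genes. With DESeq2 size factors, 3 rather than 4 TCF/LEF factors were lower in Neuron against PP. The cause of these shifts was not tested. With 1 library left out, the smaller group was tested with the spread shared over all libraries. Depth limits Fzd5, Fzd6 and Fzd10, which had 24, 34 and 89 reads in Neuron. With the trio as a replicate block, 9530, 13620 and 14938 features were called in DP against PP, Neuron against DP and Neuron against PP, against 7714, 12539 and 14035, and 8, 10 and 9 Frizzled genes, against 8, 9 and 9. The block changed the call of Fzd3 in Neuron against DP and no other Frizzled call. The labels number the replicates of each group but do not tie those numbers to the library numbers of the trios.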
